A study of Mus musculus with 8 samples.

Results

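Antiviral effectors that interferon switches on were followed gene by gene in the RNA of Gr-1+ cells from skin wounds and bone marrow of diabetic and nondiabetic mice. Members were chosen by name from a list of 39 symbols. Of these, 38 had a row in the deposited table of FPKM, fragments scaled to locus length and library size, and Ifi205 had none. For each symbol the row of at least 200 bp with the highest mean FPKM was taken among rows with an OK estimate in all 8 libraries. Oas1a and Oas1g share an assembled locus, so the members came to 37 loci, out of 14362 loci reached by the same rule over 14955 gene names and 39330 loci in the table. All 37 passed the filter on low values, and 12823 loci in all were tested.

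There were 4 groups of 2 libraries, each from a pool of 5 mice: Gr-1+ cells of diabetic (Lepr -/-) wound, nondiabetic (Lepr +/-) wound, diabetic (Lepr -/-) marrow and nondiabetic (Lepr +/-) marrow. The mice were C57BL/6 animals of 8 to 16 weeks, of both sexes and matched for sex, and all carried 2 excisional wounds of 8 mm on the back. Wounds with a 2 mm border of skin and the marrow were taken on day 3, so no marrow of unwounded mice is among the groups, and the controls carry a disrupted Lepr allele as heterozygotes. Wound tissue was dissociated with enzymes, and Gr-1+ cells, those with the myeloid antigens Ly6G or Ly6C, were isolated with magnetic beads. Lepr, the gene for the leptin receptor and the one disrupted in diabetic mice, had 1.37 and 1.22 FPKM in diabetic wound, against 4.95 and 4.66 FPKM in nondiabetic wound, and 0.039 and 0.186 FPKM in diabetic marrow, against 0.477 and 0.689 FPKM in nondiabetic marrow. Ly6g, a neutrophil antigen gene, had 12.2 and 12.9 FPKM in diabetic wound, 17.2 and 19.2 FPKM in nondiabetic wound, 566 and 569 FPKM in diabetic marrow and 808 and 900 FPKM in nondiabetic marrow. The wound pools also held transcripts of other cells: the summed FPKM of 7 keratinocyte markers was 669 and 649 in diabetic wound, against 260 and 268 in nondiabetic wound. Fewer cells of a type and less RNA per cell cannot be told apart in such pools, and every p-value measures the spread between pools, not between mice.

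Type I interferons, among them interferon beta from Ifnb1, bind a receptor made of the Ifnar1 and Ifnar2 chains. Receptor-bound kinases then phosphorylate STAT proteins, among them Stat2, which join Irf9 and bind the interferon-stimulated response element in the promoters of responsive genes. The products recognise viral nucleic acids, degrade or edit them, block translation or entry, and feed back on the pathway itself. Myeloid cells carry many of these transcripts at rest as well as after stimulation.

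Promoter windows of 300 bases, from 250 before to 50 after an annotated start, were given by RefSeq (GRCm38.p6) for 27 of the 38 members with a row, in 33 windows. The core of the response element, GAAA, any 2 bases, GAAA, was searched on both strands, and overlapping matches were counted separately. It was found for 14 of 27 members (51.9%) and for 3.99% of all 27025 genes with a window. The gamma-activated sequence TTCNNNGAA, a motif of the interferon gamma response, was found for 9 of 27 members (33.3%) and 9.55% of all genes. The 22 matches of the response element began between 222 bases before and 33 bases after the start, and 9 lay within the last 100 bases before it. A match is a string of letters and not a shown binding site. The windows of 6 members are printed with the matches in capitals, because the results below turn on these genes. Isg15 (chr4:156200769-156201068, minus strand) had 3 overlapping matches, Oas1a (chr5:120907476-120907775, minus strand) had 2 overlapping ones, Ifit1 (chr19:34640639-34640938, plus strand) had 2 apart, and Rsad2 (chr12:26456403-26456702, minus strand) had 1. Cmpk2 (chr12:26468965-26469264, plus strand), the neighbour of Rsad2 with starts 12763 bases apart, had none. Xaf1 (chr11:72301379-72301678, plus strand), the member that went against the others at a short 3′ locus, had none either.

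Isg15: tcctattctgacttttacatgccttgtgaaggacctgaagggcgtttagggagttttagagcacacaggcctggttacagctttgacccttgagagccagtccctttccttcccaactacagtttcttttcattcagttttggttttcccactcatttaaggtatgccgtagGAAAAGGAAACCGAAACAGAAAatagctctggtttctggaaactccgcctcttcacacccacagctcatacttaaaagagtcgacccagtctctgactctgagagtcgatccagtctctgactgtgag
Oas1a: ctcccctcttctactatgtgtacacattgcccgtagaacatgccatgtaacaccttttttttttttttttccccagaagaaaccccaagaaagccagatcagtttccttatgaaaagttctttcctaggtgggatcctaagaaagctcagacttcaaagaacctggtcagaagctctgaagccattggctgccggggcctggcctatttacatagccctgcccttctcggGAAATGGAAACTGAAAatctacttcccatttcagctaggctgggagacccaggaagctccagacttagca
Ifit1: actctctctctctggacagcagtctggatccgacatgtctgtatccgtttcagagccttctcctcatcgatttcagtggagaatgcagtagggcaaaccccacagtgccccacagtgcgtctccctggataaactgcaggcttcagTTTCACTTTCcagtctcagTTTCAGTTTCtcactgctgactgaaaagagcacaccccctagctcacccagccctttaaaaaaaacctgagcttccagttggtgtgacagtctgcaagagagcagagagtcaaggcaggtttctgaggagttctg
Rsad2: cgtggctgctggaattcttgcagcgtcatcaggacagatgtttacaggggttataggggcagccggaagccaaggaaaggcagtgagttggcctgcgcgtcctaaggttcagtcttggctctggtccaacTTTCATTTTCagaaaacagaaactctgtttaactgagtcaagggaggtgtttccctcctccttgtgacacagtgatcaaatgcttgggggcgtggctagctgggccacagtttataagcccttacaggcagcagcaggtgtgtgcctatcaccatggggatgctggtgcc
Cmpk2: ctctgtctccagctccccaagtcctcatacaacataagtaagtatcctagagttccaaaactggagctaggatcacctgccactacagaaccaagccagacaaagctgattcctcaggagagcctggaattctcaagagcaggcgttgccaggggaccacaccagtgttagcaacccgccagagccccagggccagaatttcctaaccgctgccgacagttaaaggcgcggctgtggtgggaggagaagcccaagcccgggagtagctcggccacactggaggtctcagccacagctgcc
Xaf1: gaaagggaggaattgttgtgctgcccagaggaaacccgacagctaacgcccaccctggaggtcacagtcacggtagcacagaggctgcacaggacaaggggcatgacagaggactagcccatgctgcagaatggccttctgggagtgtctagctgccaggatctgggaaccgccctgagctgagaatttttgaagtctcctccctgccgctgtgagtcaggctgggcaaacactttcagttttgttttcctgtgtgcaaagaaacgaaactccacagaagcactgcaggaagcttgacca

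Effector transcripts were lower in diabetic than in nondiabetic cells, in wound and in marrow alike. In wound, 35 of 37 loci fell (21.6% of all tested loci did). Xaf1, at a short locus at its 3′ end, rose (32.6% of all). The row named for Ifi35, which lies at the neighbouring gene Rnd2, did not pass. Ifi44, counted among the 35, passed the filter on low values only through the nondiabetic wound pools. In marrow, 35 of 37 fell (33.3% of all tested loci did) and 2 rose (13.5% of all). Scaling left 35 lower and 1 higher in wound, beside 26.7% and 29.8% of all tested loci with quantile scaling and 28.9% and 25.2% with median ratios. In marrow both scalings gave 33 lower and 2 higher, beside 20.4% and 18.0% of all with quantile scaling and 19.8% and 21.6% with median ratios. The median difference of the members, diabetic minus nondiabetic on the log2(FPKM + 1) scale, was -1.0 in wound and -0.68 in marrow, beside medians over all tested loci of 0.07 and -0.09. A fall of at least 1 on that scale was called for 18 members in wound (2.66% of all tested loci) and for 15 in marrow (1.75%), and a rise of at least 1 for Xaf1 alone among the members in both wound (2.32% of all) and marrow (2.18% of all). Trim25 fell in wound alone, the row named for Ifi35 in marrow alone and Xaf1, at its short locus, in neither. Every other member locus fell in both tissues. The share of all tested loci that fell in both tissues was not counted. Both diabetic pools lay below both nondiabetic pools at 35 loci in wound (32.0% of all tested loci) and 35 in marrow (50.3% of all). The genotypes did not overlap at 36 loci in wound and 37 in marrow, beside 79.1% and 73.4% of all tested loci. Within a group the pools were close, with a median ratio of the higher to the lower pool of 1.02 to 1.05. The highest ratio was 1.29, for the row named for Ifi35 in diabetic wound.

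**Figure D1:**
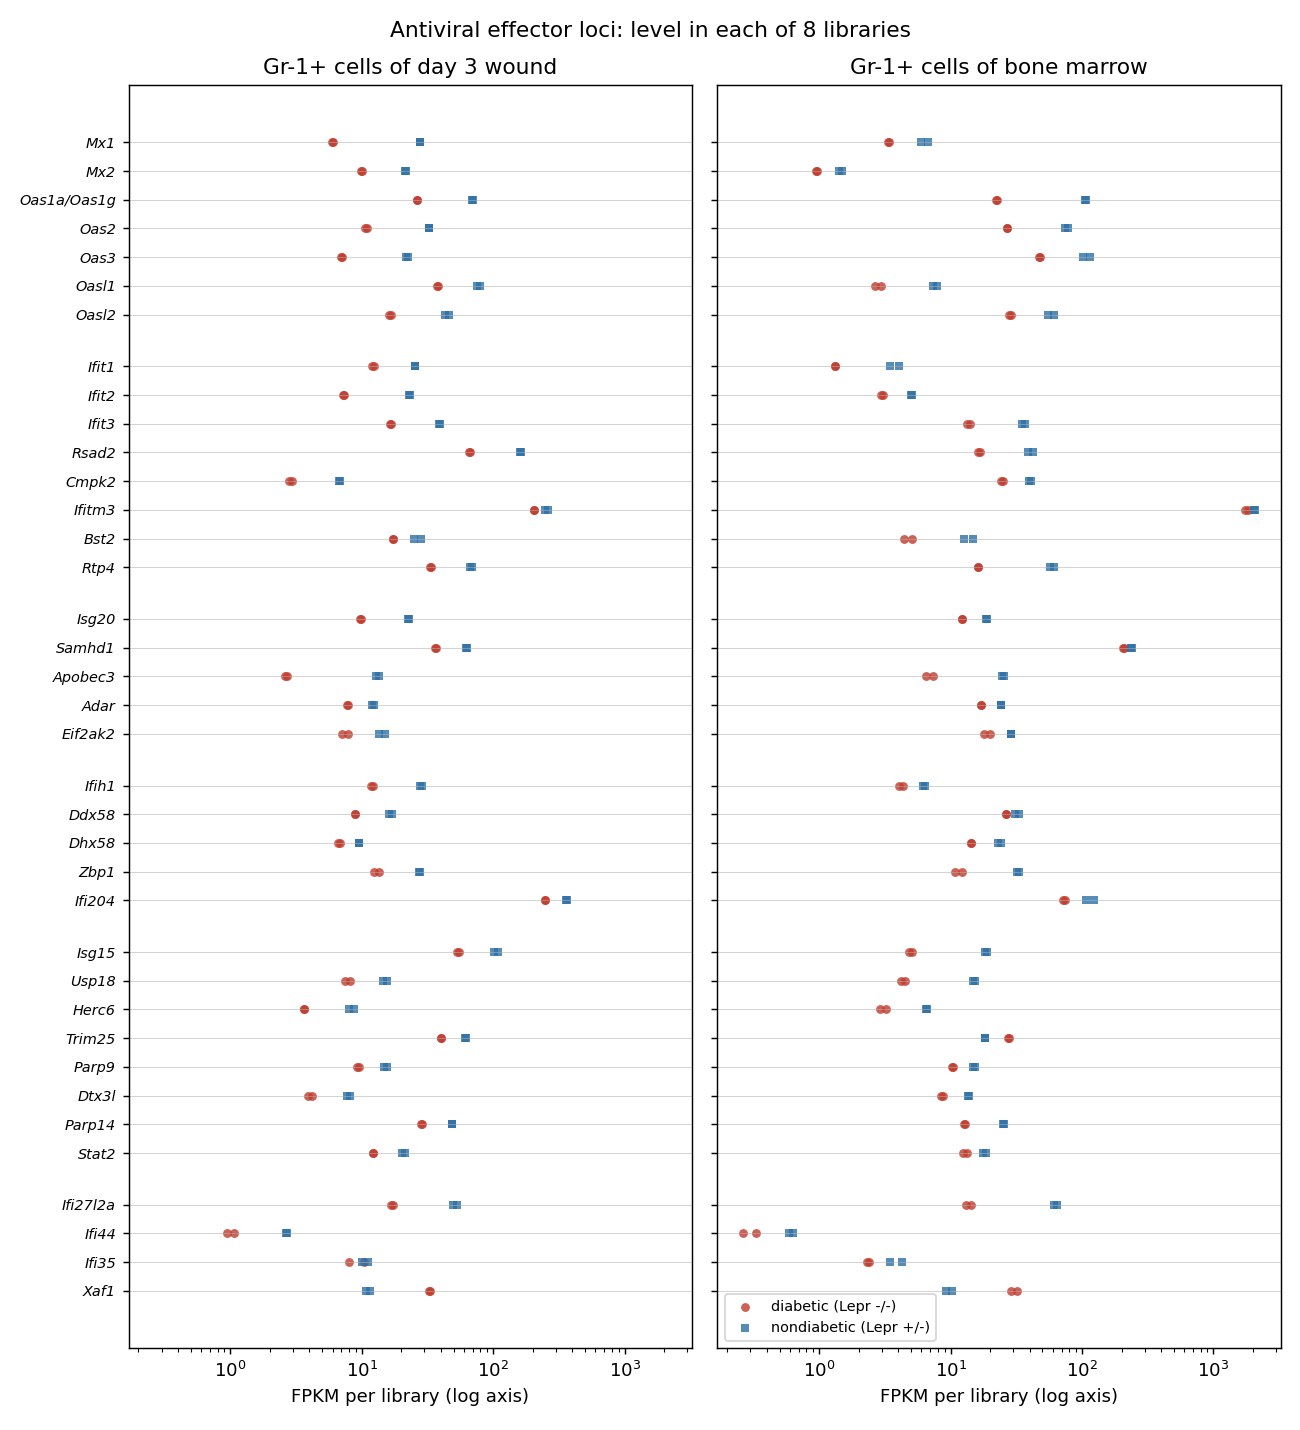
Level of each of the 37 effector loci in each library, in FPKM on a log axis, for wound (left) and bone marrow (right). Circles are diabetic pools and squares nondiabetic pools, 2 of each per tissue, and genes are grouped by role. The circles lie left of the squares at all loci but Xaf1 and the row named for Ifi35 in wound, and at all but Xaf1 and Trim25 in marrow.

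Markers of other cells also differed between the genotypes. The counts below stand beside shares over all tested loci of 21.6% lower and 32.6% higher in diabetic wound. In diabetic marrow 33.3% of all were lower and 13.5% higher. All 6 dendritic cell markers with a row fell in diabetic wound, where their summed FPKM was 59.4 and 56.7, against 146 and 150 in nondiabetic wound. Ccr7, the chemokine receptor of migrating dendritic cells, had 29.3 and 28.9 FPKM in diabetic wound, against 97.6 and 102 FPKM in nondiabetic wound. Of 9 plasmacytoid dendritic cell markers, which include Bst2, 4 fell and 2 rose in wound, with sums of 80.0 and 78.0 in diabetic wound, against 86.2 and 92.0 in nondiabetic wound. Siglech, a receptor of these cells, had 1.56 and 1.73 FPKM in diabetic wound, against 3.48 and 4.44 FPKM in nondiabetic wound. Tlr7, of the same list, went the other way, with 14.6 and 13.9 FPKM in diabetic wound, against 9.35 and 9.27 FPKM in nondiabetic wound. The 7 keratinocyte markers all rose in diabetic wound, and 4 of 6 macrophage markers did, with macrophage sums of 314 and 313 in diabetic wound, against 249 and 254 in nondiabetic wound. Fibroblast sums were 275 and 257 in diabetic wound, against 384 and 380 in nondiabetic wound, with 2 of 5 markers lower and 1 higher. T and NK cell sums were 6.90 and 9.0 in diabetic wound, against 24.8 and 23.5 in nondiabetic wound, with 2 of 7 lower and Cd4, Nkg7 and Ncr1 under 1 FPKM in all wound pools. Klrb1c made up most of the nondiabetic sum, with 3.26 and 4.96 FPKM in diabetic wound, against 18.6 and 17.2 FPKM in nondiabetic wound. Endothelial sums were 53.6 and 53.1 in diabetic wound, against 32.1 and 32.8 in nondiabetic wound, with 3 of 5 markers higher. In marrow the macrophage sum was 74.2 and 76.1 in diabetic pools, against 43.2 and 44.1 in nondiabetic pools, with 6 of 6 markers higher. There the monocyte sum, most of it from Ly6c2, was 1900 and 1870 in diabetic pools, against 3110 and 3220 in nondiabetic pools, with 5 of 5 markers lower. Monocyte sums in wound went the other way, 397 and 403 in diabetic pools, against 366 and 373 in nondiabetic pools. Of the 5 markers, 2 were higher and 2 lower in diabetic wound. The 8 immediate early and dissociation genes all rose in marrow, with sums of 1490 and 1520 in diabetic pools, against 543 and 502 in nondiabetic pools. Erythroid sums in marrow were 14000 and 15100 in diabetic pools, against 6220 and 6260 in nondiabetic pools, with 2 of 4 higher and 1 lower. B cell sums in marrow were 58.6 and 59.3 in diabetic pools, against 33.7 and 35.4 in nondiabetic pools, with 5 of 5 higher. Neutrophil sums were 324 and 324 in diabetic wound, against 455 and 500 in nondiabetic wound, with 5 of 8 markers lower and 1 higher. The S100a9 row among them was under 1 FPKM in all wound pools. In marrow the neutrophil sums were 9950 and 10100 in diabetic pools, against 10900 and 11700 in nondiabetic pools. There 3 of 8 were lower, a share near the 33.3% of all tested loci. The part of these cells in the effector differences was not tested.

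Differences were tested in limma over all 12823 loci, with Benjamini-Hochberg adjustment over that table and a threshold of 0.05, and each is given as diabetic minus nondiabetic in log2(FPKM + 1) with its standard error (SE). The counts by role below stand beside shares of all tested loci that fell, 21.6% in wound and 33.3% in marrow. The share that fell in both was not counted. Among the GTPases and RNA-sensing synthetases, 7 loci in all, each fell in both tissues. Mx1 encodes a GTPase that blocks influenza virus in the nucleus of mouse cells, and laboratory strains such as C57BL/6 carry a defective copy of it. It had 6.06 and 5.93 FPKM in diabetic wound, against 27.7 and 27.8 FPKM in nondiabetic wound, and 3.37 and 3.38 FPKM in diabetic marrow, against 5.96 and 6.69 FPKM in nondiabetic marrow. The diabetic pools were the lower ones in both tissues, without overlap. The difference for Mx1 was -2.04 (SE 0.054, adjusted p = 7.54e-06) in wound, the largest fall of any member there, and -0.74 (SE 0.054, adjusted p = 2.26e-04) in marrow. Mx2, a cytoplasmic relative, had 10.0 and 9.86 FPKM in diabetic wound, against 21.2 and 21.9 FPKM in nondiabetic wound, and 0.962 and 0.941 FPKM in diabetic marrow, against 1.42 and 1.49 FPKM in nondiabetic marrow. Its wound pools stood far above all marrow pools, and the diabetic ones were lower within each tissue, with differences of -1.04 (SE 0.043, adjusted p = 2.31e-05) and -0.33 (SE 0.043, adjusted p = 0.00177).

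Oas enzymes make oligoadenylates on double-stranded RNA, which activate RNase L. The joint Oas1a/Oas1g locus (chromosome 5, 121250198 to 121357541, mm9, minus strand) had 26.4 and 26.5 FPKM in diabetic wound, against 68.9 and 70.3 FPKM in nondiabetic wound, and 22.0 and 22.5 FPKM in diabetic marrow, against 106 and 107 FPKM in nondiabetic marrow. Its level in nondiabetic marrow was the highest of the 4 groups and that in diabetic marrow the lowest. The fall in marrow, -2.21 (SE 0.029, adjusted p = 9.08e-07), was the largest of any member there, and the ratio of mean FPKM, diabetic over nondiabetic, was 0.208 in marrow and 0.380 in wound. This locus also spans Oas1b, Oas1c, Oas1f and Oas1h, near copies between which reads may be split, so the value belongs to the cluster. Oas2 had 10.6 and 10.9 FPKM in diabetic wound, against 32.7 and 32.8 FPKM in nondiabetic wound, and 26.9 and 27.0 FPKM in diabetic marrow, against 74.7 and 79.0 FPKM in nondiabetic marrow. Oas3 had 6.96 and 7.03 FPKM in diabetic wound, against 22.5 and 21.8 FPKM in nondiabetic wound, and 47.6 and 47.2 FPKM in diabetic marrow, against 102 and 115 FPKM in nondiabetic marrow. For both genes, marrow exceeded wound within each genotype, and the nondiabetic pools exceeded the diabetic ones within each tissue. Oas2 differed by -1.52 (SE 0.036, adjusted p = 6.12e-06) in wound and -1.48 (SE 0.036, adjusted p = 4.95e-06) in marrow. Oas3 differed by -1.53 (SE 0.056, adjusted p = 1.80e-05) in wound and -1.17 (SE 0.056, adjusted p = 5.41e-05) in marrow. Oasl1, which in mice restrains translation of Irf7 mRNA, had 37.8 and 37.3 FPKM in diabetic wound, against 75.4 and 80.0 FPKM in nondiabetic wound, and 2.94 and 2.68 FPKM in diabetic marrow, against 7.32 and 7.86 FPKM in nondiabetic marrow. It differed by -1.03 (SE 0.054, adjusted p = 4.76e-05) in wound and -1.17 (SE 0.054, adjusted p = 4.36e-05) in marrow. Its chromosomal neighbour Oasl2, whose start lies 26306 bases away, averaged 16.4 ± 0.524 FPKM in diabetic wound, against 44.7 ± 1.77 in nondiabetic wound, and 28.2 ± 0.566 in diabetic marrow, against 58.2 ± 3.64 in nondiabetic marrow (mean ± SD, n = 2 pools each). That gene also fell in both tissues, by -1.39 (SE 0.054, adjusted p = 2.06e-05) and -1.02 (SE 0.054, adjusted p = 7.64e-05).

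The IFIT proteins bind foreign RNA, Ifit1 through caps that lack methylation, and act together with Ifit2 and Ifit3. All 3 genes fell in both tissues (21.6% of all tested loci fell in wound and 33.3% in marrow). Ifit1 had 12.4 and 12 FPKM in diabetic wound, against 25.4 and 25.4 FPKM in nondiabetic wound, and 1.31 and 1.31 FPKM in diabetic marrow, against 3.48 and 4.05 FPKM in nondiabetic marrow. In both tissues the diabetic pools were the lower ones, with differences of -1.0 (SE 0.062, adjusted p = 8.53e-05) in wound and -1.04 (SE 0.062, adjusted p = 1.08e-04) in marrow. Ifit2 had 7.19 and 7.38 FPKM in diabetic wound, against 22.9 and 23.3 FPKM in nondiabetic wound, and 2.97 and 3.07 FPKM in diabetic marrow, against 5.09 and 5.01 FPKM in nondiabetic marrow. The gap between the genotypes was wider in wound, -1.54 (SE 0.038, adjusted p = 6.47e-06), than in marrow, -0.59 (SE 0.038, adjusted p = 1.47e-04). Ifit3, which has a near-identical copy beside it, averaged 16.6 ± 0.264 FPKM in diabetic wound, against 39.0 ± 0.249 in nondiabetic wound, and 13.7 ± 0.401 in diabetic marrow, against 35.8 ± 1.58 in nondiabetic marrow (SD, n = 2 each), and differed by -1.18 (SE 0.041, adjusted p = 1.52e-05) and -1.32 (SE 0.041, adjusted p = 1.22e-05).

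Rsad2 encodes viperin, an enzyme that makes a chain-terminating nucleotide, and Cmpk2 encodes a nucleotide kinase that supplies its substrate. The genes are neighbours on chromosome 12 and point away from each other. Rsad2 had 66.8 and 65.9 FPKM in diabetic wound, against 160 and 162 FPKM in nondiabetic wound, and 16.9 and 16.1 FPKM in diabetic marrow, against 38.6 and 42.7 FPKM in nondiabetic marrow. Cmpk2 had 2.78 and 2.97 FPKM in diabetic wound, against 6.75 and 6.78 FPKM in nondiabetic wound, and 24.4 and 25 FPKM in diabetic marrow, against 40.8 and 39.6 FPKM in nondiabetic marrow. With diabetes the pair fell together, Rsad2 by -1.26 (SE 0.053, adjusted p = 2.56e-05) in wound and -1.25 (SE 0.053, adjusted p = 3.50e-05) in marrow, and Cmpk2 by -1.0 (SE 0.039, adjusted p = 2.05e-05) in wound and -0.68 (SE 0.039, adjusted p = 9.44e-05) in marrow. Across tissues they stood in opposite order, Rsad2 being higher in wound and Cmpk2 higher in marrow in all pools. Ifitm3 encodes a membrane protein that blocks virus fusion in endosomes. Its locus (chromosome 7, 148195122 to 148203515, mm9) also spans the related gene Ifitm6, so the values hold both. It had 205 and 205 FPKM in diabetic wound, against 248 and 261 FPKM in nondiabetic wound, and 1740 and 1820 FPKM in diabetic marrow, against 2030 and 2070 FPKM in nondiabetic marrow, the highest level of any member. The falls were small, -0.31 (SE 0.053, adjusted p = 0.00386) in wound and -0.20 (SE 0.053, adjusted p = 0.0221) in marrow. The marrow call of Ifitm3 ended when diabetic marrow pool 1 was left out (-0.17, adjusted p = 0.1), diabetic wound pool 1 or 2 (-0.20, adjusted p = 0.0602 and 0.0581) or nondiabetic marrow pool 2 (-0.19, adjusted p = 0.0707). It also ended under quantile scaling (-0.12, adjusted p = 0.136), under median-ratio scaling (-0.05, adjusted p = 0.312) and with the marrow libraries alone in the fit (-0.20, adjusted p = 0.166). Bst2, tetherin, holds budding virus on the cell surface and is also a marker of plasmacytoid dendritic cells. It had 17.2 and 17.3 FPKM in diabetic wound, against 25.1 and 28.1 FPKM in nondiabetic wound, and 4.40 and 5.10 FPKM in diabetic marrow, against 14.8 and 12.6 FPKM in nondiabetic marrow. Differences were -0.59 (SE 0.097, adjusted p = 0.00329) in wound and -1.35 (SE 0.097, adjusted p = 2.14e-04) in marrow, where the diabetic over nondiabetic ratio of means was 0.347. Rtp4, an RNA-binding effector, had 33.0 and 33.6 FPKM in diabetic wound, against 66.6 and 69.2 FPKM in nondiabetic wound, and 16.3 and 16.1 FPKM in diabetic marrow, against 57.3 and 60.8 FPKM in nondiabetic marrow. The diabetic marrow pools were the lowest of all. Rtp4 differed by -1.01 (SE 0.040, adjusted p = 2.08e-05) in wound and -1.81 (SE 0.040, adjusted p = 3.72e-06) in marrow.

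The 5 genes that degrade, edit or stop translation of nucleic acids fell in both tissues (21.6% of all tested loci in wound, 33.3% in marrow). Apobec3, a cytidine deaminase of retroviral DNA, had 2.59 and 2.70 FPKM in diabetic wound, against 13.5 and 12.8 FPKM in nondiabetic wound, and 6.51 and 7.36 FPKM in diabetic marrow, against 24.7 and 25.3 FPKM in nondiabetic marrow. The diabetic over nondiabetic ratio of means was 0.202 in wound, the lowest of any member, and 0.277 in marrow, with differences of -1.95 (SE 0.060, adjusted p = 1.14e-05) and -1.72 (SE 0.060, adjusted p = 1.64e-05). Its locus extends past the annotated gene over Cbx7. Samhd1, which removes the building blocks of DNA, had 37.0 and 36.4 FPKM in diabetic wound, against 62.3 and 62.9 FPKM in nondiabetic wound, and 206 and 208 FPKM in diabetic marrow, against 235 and 241 FPKM in nondiabetic marrow. The difference was -0.75 (SE 0.031, adjusted p = 2.18e-05) in wound and -0.20 (SE 0.031, adjusted p = 0.00334) in marrow, and the marrow call ended under median-ratio scaling (-0.05, adjusted p = 0.162). Isg20, an exonuclease, differed by -1.14 (SE 0.031, adjusted p = 7.75e-06) in wound and -0.57 (SE 0.031, adjusted p = 7.64e-05) in marrow. Adar, which edits adenosines in double-stranded RNA, differed by -0.58 (SE 0.034, adjusted p = 6.57e-05) and -0.47 (SE 0.034, adjusted p = 2.19e-04). Eif2ak2, the kinase PKR that halts translation on double-stranded RNA, was represented by a locus of 623 bases inside the 3′ untranslated region of its last exon (chromosome 17, 79252519 to 79253141, mm9, minus strand). There it had 7.07 and 7.86 FPKM in diabetic wound, against 15.1 and 13.6 FPKM in nondiabetic wound, and 17.9 and 19.8 FPKM in diabetic marrow, against 28.7 and 28.8 FPKM in nondiabetic marrow. It differed by -0.86 (SE 0.074, adjusted p = 2.88e-04) in wound and -0.59 (SE 0.074, adjusted p = 0.00162) in marrow. In marrow the direction depended on the locus: with the widest locus of the gene it was 1.06 (adjusted p = 0.042), and with all its loci summed -0.08 (adjusted p = 0.723).

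Sensors of viral nucleic acid fell as well, all 5 loci in both tissues (21.6% of all tested loci in wound, 33.3% in marrow). Ifih1 encodes MDA5 and Ddx58 encodes RIG-I, helicases that recognise viral RNA, while Dhx58 encodes their regulator LGP2. Ifih1 had 12.2 and 11.8 FPKM in diabetic wound, against 27.8 and 28.8 FPKM in nondiabetic wound, and 4.06 and 4.37 FPKM in diabetic marrow, against 6.15 and 6.39 FPKM in nondiabetic marrow. Ddx58 had 8.91 and 8.95 FPKM in diabetic wound, against 16.2 and 17.1 FPKM in nondiabetic wound, and 26.6 and 26.4 FPKM in diabetic marrow, against 31.0 and 33.3 FPKM in nondiabetic marrow. The genotypes did not overlap for either sensor, and both were nearer each other in marrow than in wound. Ifih1 differed by -1.17 (SE 0.047, adjusted p = 2.08e-05) in wound and -0.48 (SE 0.047, adjusted p = 5.96e-04) in marrow, Ddx58 by -0.83 (SE 0.045, adjusted p = 5.50e-05) and -0.27 (SE 0.045, adjusted p = 0.00454). For Dhx58 the fall was -0.45 (SE 0.041, adjusted p = 3.46e-04) in wound and -0.68 (SE 0.041, adjusted p = 1.10e-04) in marrow. Zbp1, a sensor of Z-form nucleic acids, differed by -1.02 (SE 0.064, adjusted p = 9.04e-05) in wound and -1.41 (SE 0.064, adjusted p = 4.31e-05) in marrow. Ifi204, a DNA sensor of the PYHIN family, was measured on a locus shared with Ifi203 and AI607873, with mean FPKM of 248 ± 0.533 in diabetic wound, against 362 ± 0.294 in nondiabetic wound, and 72.5 ± 1.94 in diabetic marrow, against 116 ± 10.0 in nondiabetic marrow (SD, n = 2 each). The falls at this locus were -0.54 (SE 0.061, adjusted p = 7.86e-04) and -0.66 (SE 0.061, adjusted p = 4.91e-04).

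The ubiquitin-like modifier Isg15, its protease Usp18 and its mouse ligase Herc6 fell in both tissues. Isg15 had 55.2 and 52.9 FPKM in diabetic wound, against 101 and 109 FPKM in nondiabetic wound, and 5.10 and 4.87 FPKM in diabetic marrow, against 18.3 and 18.9 FPKM in nondiabetic marrow. Usp18, which also damps signalling at Ifnar2, had 7.51 and 8.10 FPKM in diabetic wound, against 14.5 and 15.5 FPKM in nondiabetic wound, and 4.49 and 4.21 FPKM in diabetic marrow, against 14.9 and 15.4 FPKM in nondiabetic marrow. Both genes were lowest in diabetic marrow. Isg15 differed by -0.95 (SE 0.048, adjusted p = 4.37e-05) in wound and -1.71 (SE 0.048, adjusted p = 8.75e-06) in marrow, and Usp18 by -0.86 (SE 0.056, adjusted p = 1.01e-04) in wound and -1.60 (SE 0.056, adjusted p = 1.59e-05) in marrow. Herc6 differed by -1.01 (SE 0.057, adjusted p = 6.41e-05) and -0.90 (SE 0.057, adjusted p = 1.46e-04). The ligase Dtx3l and its partner Parp9 sit on opposite strands of 1 locus interval, and strand was taken from the order of locus IDs. Parp9 differed by -0.64 (SE 0.042, adjusted p = 1.03e-04) and -0.50 (SE 0.042, adjusted p = 3.53e-04), and Dtx3l by -0.83 (SE 0.049, adjusted p = 7.06e-05) and -0.61 (SE 0.049, adjusted p = 3.17e-04). Parp14, an ADP-ribosyltransferase, differed by -0.75 (SE 0.029, adjusted p = 2.01e-05) in wound and -0.94 (SE 0.029, adjusted p = 1.19e-05) in marrow, and Stat2, the signal transducer of the response itself, by -0.74 (SE 0.048, adjusted p = 1.05e-04) and -0.47 (SE 0.048, adjusted p = 7.54e-04). Trim25, a ubiquitin ligase that acts on RIG-I, had 39.9 and 40.1 FPKM in diabetic wound, against 61.3 and 62.2 FPKM in nondiabetic wound, and 27.4 and 28 FPKM in diabetic marrow, against 18.2 and 18.3 FPKM in nondiabetic marrow. It fell in wound, -0.62 (SE 0.028, adjusted p = 3.12e-05), and rose in marrow, 0.57 (SE 0.028, adjusted p = 5.51e-05), with no overlap of pools in either tissue. Another Trim25 row over the same interval, strand not known, showed no fall in wound. It had 30.2 and 34.2 FPKM in diabetic wound, against 29.0 and 33.7 FPKM in nondiabetic wound. A further row past it, at lower level, had 0.371 and 0.566 FPKM in diabetic wound, against 2.03 and 2.12 FPKM in nondiabetic wound.

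Of the remaining 4 members, Ifi27l2a and Ifi44 fell in both tissues. Ifi27l2a, on a locus that also spans the related gene Ifi27l2b, had 17.4 and 16.7 FPKM in diabetic wound, against 49.1 and 52.7 FPKM in nondiabetic wound, and 13.1 and 14.3 FPKM in diabetic marrow, against 64.2 and 61.7 FPKM in nondiabetic marrow. The diabetic over nondiabetic ratio was 0.334 in wound and 0.217 in marrow, with differences of -1.53 (SE 0.057, adjusted p = 1.87e-05) and -2.12 (SE 0.057, adjusted p = 7.46e-06). Ifi44, the member with the lowest level, averaged 1.00 ± 0.0847 FPKM in diabetic wound, against 2.68 ± 0.0125 in nondiabetic wound, and 0.298 ± 0.0479 in diabetic marrow, against 0.610 ± 0.0316 in nondiabetic marrow (SD, n = 2 each). It differed by -0.88 (SE 0.060, adjusted p = 1.24e-04) and -0.31 (SE 0.060, adjusted p = 0.00774), which the added 1 FPKM shrinks. The diabetic over nondiabetic ratios of mean FPKM were 0.375 in wound and 0.489 in marrow. Ifi44 passed the filter on low values only through the nondiabetic wound pools (2.69 and 2.67 FPKM), so its comparisons with those pools are descriptions. The row named for Ifi35 (chromosome 11, 101329728 to 101333188, mm9) does not overlap the annotated Ifi35 gene and lies at the neighbouring gene Rnd2, so its values are not read as Ifi35, although it counts among the 37 loci under that name. It had 8.07 and 10.4 FPKM in diabetic wound, against 10.0 and 11.1 FPKM in nondiabetic wound, and 2.33 and 2.40 FPKM in diabetic marrow, against 3.48 and 4.28 FPKM in nondiabetic marrow. The wound pools overlapped, and the difference of -0.18 there (95% interval -0.50 to 0.14, adjusted p = 0.291) did not pass, while marrow differed by -0.53 (SE 0.129, adjusted p = 0.018). The marrow call ended without diabetic marrow pool 1 (adjusted p = 0.0779), diabetic marrow pool 2 (0.0631) or nondiabetic marrow pool 2 (adjusted p = 0.083), and under quantile scaling (-0.38, adjusted p = 0.071).

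Xaf1, whose product binds the apoptosis inhibitor XIAP, was the member that went the other way in both tissues. The row with its highest mean FPKM is a locus of 546 bases (chromosome 11, 72126771 to 72127316, mm9, plus strand), of which 465 lie in the 3′ untranslated region and 81 past the annotated end of the gene. At this locus Xaf1 had 33.1 and 32.8 FPKM in diabetic wound, against 10.8 and 11.6 FPKM in nondiabetic wound, and 28.9 and 32.1 FPKM in diabetic marrow, against 10.2 and 9.28 FPKM in nondiabetic marrow. All 4 diabetic pools were above all 4 nondiabetic pools. The difference was 1.48 (SE 0.067, adjusted p = 3.14e-05) in wound and 1.55 (SE 0.067, adjusted p = 3.64e-05) in marrow. Another row of the gene lies directly before it (chromosome 11, 72114988 to 72126706, 11719 bases, strand not known) at lower levels, 0.478 and 0.793 FPKM in diabetic wound, against 4.82 and 4.87 FPKM in nondiabetic wound, and 1.78 and 2.58 FPKM in diabetic marrow, against 3.38 and 3.81 FPKM in nondiabetic marrow. On this wider locus the diabetic pools were the lower ones, by -1.84 in wound (adjusted p = 0.0002) and -0.54 in marrow (adjusted p = 0.0251), the direction of the other effectors. The rise was thus seen at the short terminal locus and not at the wider one. Other rows of member symbols numbered 29, over 15 symbols. Of the 26 with an OK estimate and a mean of at least 1 FPKM in some group, 23 had both diabetic wound pools below the nondiabetic ones (32.0% of all tested loci did) and 0 had both above. In marrow 11 had both diabetic pools below, no larger a share than the 50.3% of all tested loci, and 3 had both above. Some of these rows reached 1 FPKM only in nondiabetic wound, such as an Oasl2 row with means of 3.09 FPKM there and 0.327 FPKM in diabetic wound. The shares over all tested loci rest on a different filter, and many of these rows lie over the intervals of counted members. The counts of other rows are therefore descriptions.

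**Figure D2:**
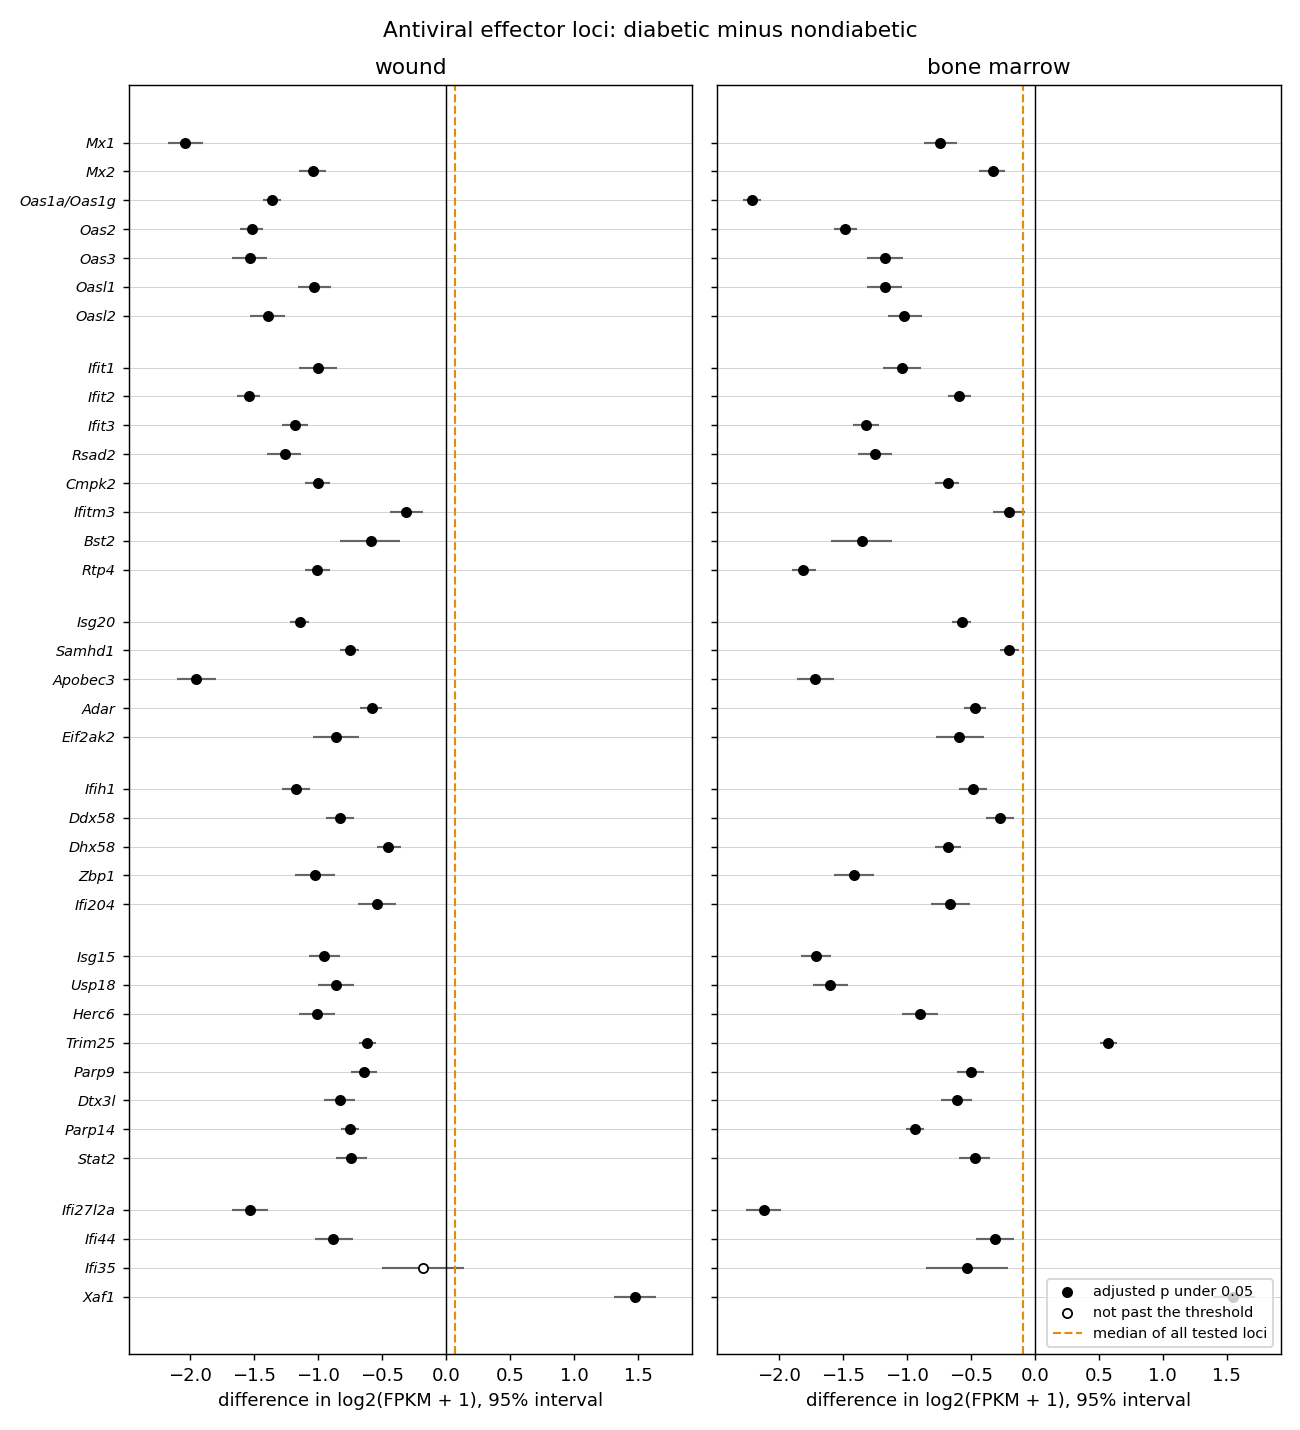
Difference between diabetic and nondiabetic pools for each effector locus, in log2(FPKM + 1) with the 95% interval of the fit, in wound (left) and bone marrow (right). Filled points passed the threshold, open ones did not, and the dashed line is the median of all tested loci (0.07 in wound, -0.09 in marrow). Xaf1 stands alone to the right in wound (1.48), and Xaf1 (1.55) and Trim25 (0.57) do in marrow.

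The size of the diabetes difference varied between tissues. The difference between the differences, wound minus marrow, was tested for each locus: 14 members had a lower difference in wound (19.2% of all tested loci did), 9 a higher one (39.7% of all), and 14 did not pass. The median over members was -0.11, beside 0.19 over all tested loci. Scaling moved that overall median, to 0.06 with quantile scaling and to 0 with median ratios, and the calls with it: 22 members lower and 6 higher with quantile scaling (26% and 29.8% of all tested loci), and 24 lower and 6 higher with median ratios (29.3% and 25.6%). As deposited, 58.9% of all tested loci were called in either direction, and 62.2% of the members. The fall was greater in wound for Mx1, by -1.30 (SE 0.076, adjusted p = 1.04e-04), for Ifit2, by -0.95 (SE 0.054, adjusted p = 9.26e-05), for Mx2, by -0.71 (SE 0.061, adjusted p = 3.09e-04), and for Ifih1, by -0.69 (SE 0.066, adjusted p = 4.37e-04). Trim25, which fell in wound and rose in marrow, differed by -1.19 (SE 0.039, adjusted p = 2.39e-05). In marrow the fall was greater for Oas1a/Oas1g, with a difference between tissues of 0.85 (SE 0.041, adjusted p = 5.94e-05), for Rtp4, 0.80 (SE 0.056, adjusted p = 1.72e-04), for Bst2, 0.76 (SE 0.137, adjusted p = 0.00453), for Isg15, 0.76 (SE 0.068, adjusted p = 3.52e-04), and for Usp18, 0.74 (SE 0.078, adjusted p = 6.40e-04). These 10 loci kept direction and call under every alternative run except the minimum difference of 1, which only Mx1 and Trim25 pass (4.24% of all tested loci were called lower by at least 1, and 4.99% higher, as was no member). Rsad2 had the value nearest to 0 (-0.01, 95% interval -0.20 to 0.17, adjusted p = 0.888). Among smaller differences, the call of Dtx3l (-0.22) ended when any of 5 libraries was left out: diabetic marrow pool 1 (adjusted p = 0.0537) or 2 (adjusted p = 0.0991), diabetic wound pool 2 (adjusted p = 0.103), nondiabetic marrow pool 1 (adjusted p = 0.0889) or nondiabetic wound pool 1 (adjusted p = 0.101). That of Stat2 (-0.27) ended without diabetic wound pool 1 (adjusted p = 0.0503) or nondiabetic wound pool 2 (adjusted p = 0.0518), and that of Dhx58 (0.23) without diabetic wound pool 1 (adjusted p = 0.0517).

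**Figure D3:**
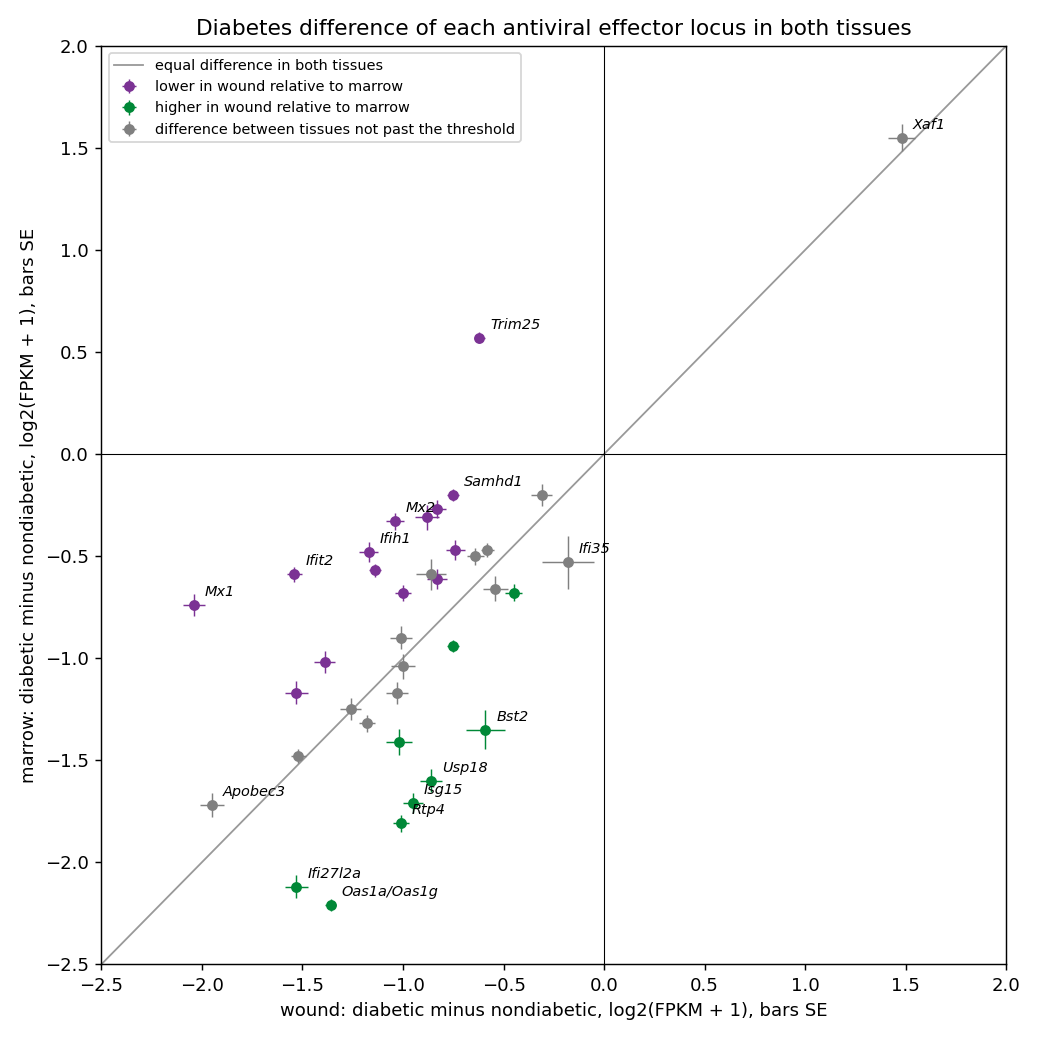
Diabetic minus nondiabetic difference of each effector locus in wound (horizontal) and in marrow (vertical), in log2(FPKM + 1), with SE bars. The grey diagonal marks equal differences, and colours show the direction of the tested difference between tissues. Mx1 (-2.04 in wound, -0.74 in marrow) lies far above the diagonal, Oas1a/Oas1g (-1.36 and -2.21) below it, Trim25 alone in the upper left and Xaf1 alone in the upper right.

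Between tissues the effectors did not move as 1 group. In diabetic mice, 20 of 37 loci were higher in wound than in marrow (37.9% of all tested loci were) and 14 lower (47.8% of all). In nondiabetic mice, 20 were higher (32.8% of all) and 15 lower (54.1% of all). With quantile scaling 23 were higher and 12 lower in diabetic mice (40.6% and 44.4% of all tested loci) and 25 higher and 12 lower in nondiabetic mice (38.0% and 46.1%). With median ratios 24 were higher and 12 lower in diabetic mice (44.8% and 40.4% of all) and 25 higher and 11 lower in nondiabetic mice (44.3% and 40.2%). The median over all tested loci was -0.18 in diabetic and -0.38 in nondiabetic mice as deposited, and 0.06 and 0.07 with median ratios. Per the study's design, the wound and marrow cells of a genotype came from the same 10 mice, without a statement of which pools correspond. The 2 comparisons share no library. As deposited, the loci higher in wound in both genotypes were Mx1, Mx2, Oasl1, Ifit1, Ifit2, Ifit3, Isg15, Rsad2, Rtp4, Ifi44, the row named for Ifi35, Ifih1, Bst2, Parp14, Herc6, Ifi204 and Trim25. Those lower in wound in both were Oas2, Oas3, Oasl2 (with scaling, only in diabetic mice), Ddx58, Dhx58, Eif2ak2, Dtx3l, Cmpk2, Samhd1, Adar, Apobec3 and Ifitm3. The share of all tested loci called the same way in both genotypes was not counted, so these are lists only. The call of Ifi44 in diabetic mice (0.63) ended with quantile scaling (0.06, adjusted p = 0.459). A difference of at least 1 was called higher for 11 members (21.2% of all tested loci) and lower for 9 (25.4%) in diabetic mice, and higher for 12 (18.9%) and lower for 6 (29.6%) in nondiabetic mice. On the log2(FPKM + 1) scale, wound minus marrow was largest in diabetic mice for Oasl1, at 3.34 (SE 0.054, adjusted p = 2.86e-08). In nondiabetic mice Oasl1 (3.20, SE 0.054, adjusted p = 3.60e-08) and Mx2 (3.20) were level. By mean FPKM the wound over marrow ratio there was 14.8 for Mx2 and 10.2 for Oasl1. Mx2 had 2.49 in diabetic mice on the log2 scale, Isg15 3.20 in diabetic and 2.44 in nondiabetic mice, and Ifit1 2.52 and 2.47. The most negative was Ifitm3 at -3.11 (SE 0.053, adjusted p = 3.47e-08) in diabetic and -3.00 (SE 0.053, adjusted p = 4.21e-08) in nondiabetic mice, followed by Cmpk2 (-2.73 and -2.41), Oas3 (-2.60 and -2.24) and Samhd1 (-2.46 and -1.91). Some relatives and neighbours parted between tissues: Rsad2 (1.95 and 1.96) from Cmpk2, and Ifih1 (1.32 and 2.01) from Ddx58 (-1.47 and -0.91).

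For a few loci the order of the tissues depended on genotype. Oas1a/Oas1g was higher in wound in diabetic mice (0.24, SE 0.029, adjusted p = 2.69e-04) and lower in nondiabetic mice (-0.61, SE 0.029, adjusted p = 2.54e-06), and Ifi27l2a likewise differed by 0.30 (SE 0.057, adjusted p = 0.00292) in diabetic and -0.30 (SE 0.057, adjusted p = 0.00257) in nondiabetic mice. Isg20 was lower in wound in diabetic mice (-0.31, SE 0.031, adjusted p = 1.06e-04) and higher in nondiabetic mice (0.26, SE 0.031, adjusted p = 2.24e-04). The tested difference between the tissues' diabetes effects passed for all 3 (0.85, 0.60 and -0.57). These orders rest on the scaling: in nondiabetic mice Oas1a/Oas1g moved to -0.04 with median ratios (adjusted p = 0.121) and Ifi27l2a to 0.21 with quantile scaling and 0.26 with median ratios, and in diabetic mice Isg20 moved to 0.04 (adjusted p = 0.214) and -0.03 (adjusted p = 0.36). Under the same scalings the nondiabetic differences of Oasl2 (-0.37) and Zbp1 (-0.24) and the diabetic one of Parp9 (-0.12) changed sign, so the order of the tissues for these 3 depended on the scaling. Calls near the threshold also ended when 1 library was left out. In diabetic mice these were Herc6, without diabetic marrow pool 2 (adjusted p = 0.0958) or diabetic wound pool 1 or 2 (0.0681 and 0.0734), and Parp9, without each of the 4 diabetic libraries in turn (lowest adjusted p = 0.0527 and highest 0.15). In nondiabetic mice they were Ifit3, without nondiabetic marrow pool 1 (adjusted p = 0.143), nondiabetic wound pool 1 or 2 (0.112 and 0.0844) or diabetic wound pool 1 or 2 (0.0544 and 0.0546), Xaf1, without nondiabetic marrow pool 2 (adjusted p = 0.177), nondiabetic wound pool 2 (0.172) or diabetic wound pool 1 or 2 (0.0641 and 0.0642), Zbp1, without nondiabetic marrow pool 1 (adjusted p = 0.0611) or nondiabetic wound pool 1 (0.0583), and Stat2, without nondiabetic wound pool 2 (adjusted p = 0.0565). By mean FPKM the highest group was nondiabetic wound at 20 loci, nondiabetic marrow at 16 and diabetic wound at 1, Xaf1. The lowest was diabetic marrow at 20 loci, diabetic wound at 15 and nondiabetic marrow at 2. Shares over all tested loci were not counted for the highest and lowest groups. The order of the tissues also moves with the scaling, so these counts are descriptions.

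**Figure D4:**
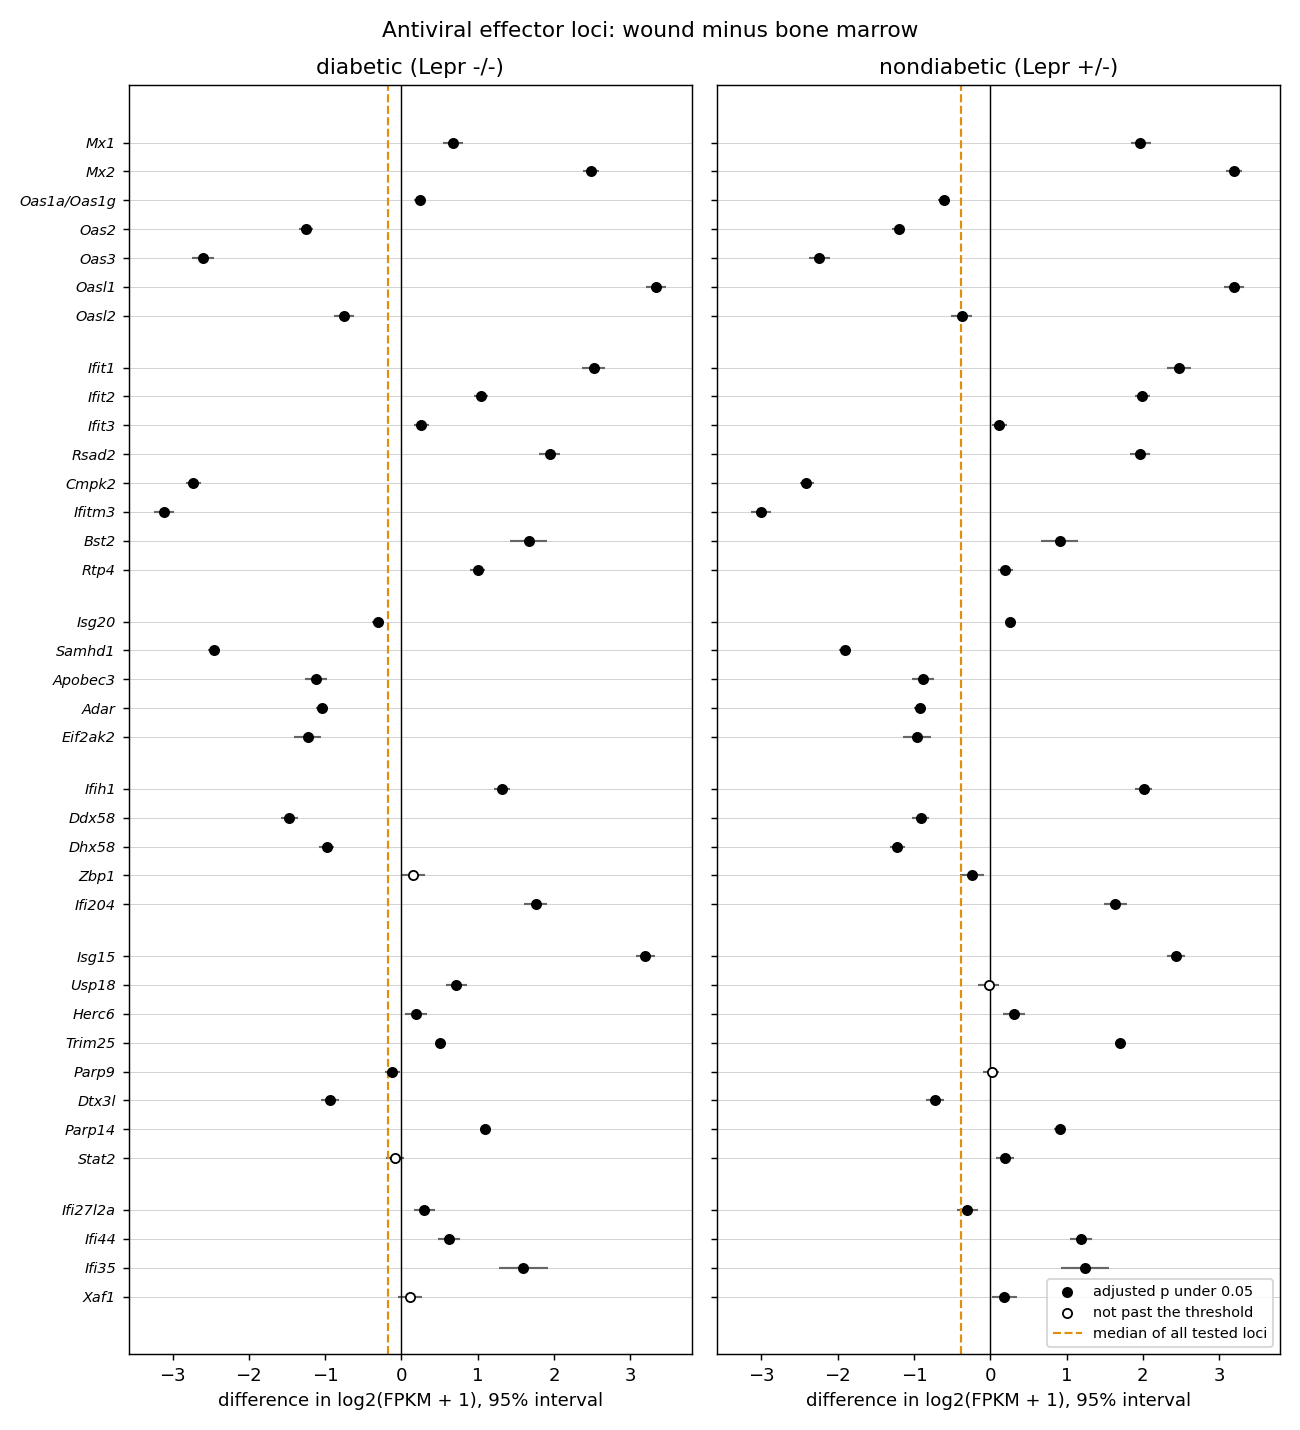
Wound minus bone marrow difference of each effector locus, in log2(FPKM + 1) with the 95% interval of the fit, in diabetic (left) and nondiabetic mice (right). Filled points passed the threshold, open ones did not, and the dashed line is the median of all tested loci (-0.18 in diabetic, -0.38 in nondiabetic mice). Members spread from about -3.11 (Ifitm3) to 3.34 (Oasl1) in diabetic mice, with close relatives on opposite sides of 0.

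The pathway above the effectors was followed in 4 further lists. Of the interferon genes, 9 of 23 symbols had a row and 4 passed the filter. In diabetic wound 2 of these, Ifnb1 and Ifna1, fell (21.6% of all tested loci did) and 2 did not pass. In marrow 0 of 4 passed the test by limma. There Ifnb1, Ifna1 and Ifna4 had at most 0.118 FPKM in any library, too low for a call. Ifnb1 had 27.8 and 27.2 FPKM in diabetic wound, against 61.0 and 65.4 FPKM in nondiabetic wound. In marrow it was near 0, with 0.0602 and 0.018 FPKM in diabetic marrow, against 0 and 0.118 FPKM in nondiabetic marrow. In wound it differed by -1.17 (SE 0.069, adjusted p = 6.94e-05). Ifna1 had 0.412 and 0.345 FPKM in diabetic wound, against 1.12 and 1.08 FPKM in nondiabetic wound, and was listed at 0 in 3 of the 4 marrow libraries. It passed the filter on low values only through the nondiabetic wound pools, so its difference in wound (-0.61) is a description. Of the rows the filter dropped, Ifna2 and Ifna5 were lower in diabetic wound, and the pools of Ifnab and Ifnk overlapped. Ifna13 was higher, with 0.643 and 0.686 FPKM in diabetic wound, against 0.149 and 0.101 FPKM in nondiabetic wound. Ifng, the type II interferon, had 1.61 and 1.64 FPKM in diabetic wound, against 1.73 and 2.32 FPKM in nondiabetic wound, a difference that did not pass (-0.20, adjusted p = 0.147). Among receptors, kinases, STATs and feedback genes, 13 of 17 fell and 1 rose in diabetic wound (21.6% and 32.6% of all tested loci), and 8 fell and 5 rose in diabetic marrow (33.3% and 13.5% of all). Ifnar1 had 61.9 and 62.8 FPKM in diabetic wound, against 88.8 and 89.5 FPKM in nondiabetic wound, and 28.5 and 28.6 FPKM in diabetic marrow, against 21.5 and 22.0 FPKM in nondiabetic marrow. It fell in wound (-0.51, SE 0.028, adjusted p = 5.72e-05) and rose in marrow (0.38, SE 0.028, adjusted p = 2.49e-04). Ifnar2, on a locus shared with Il10rb, had 70.6 and 68.2 FPKM in diabetic wound, against 82.7 and 81.3 FPKM in nondiabetic wound, and 35.5 and 36.8 FPKM in diabetic marrow, against 36.9 and 37.3 FPKM in nondiabetic marrow. It differed by -0.24 (SE 0.034, adjusted p = 0.00193) in wound and -0.04 (SE 0.034, adjusted p = 0.425) in marrow, which did not pass. Irf9, on a locus shared with Rnf31, had 18.5 and 18.9 FPKM in diabetic wound, against 27.1 and 29.0 FPKM in nondiabetic wound, and 26.7 and 26.7 FPKM in diabetic marrow, against 50.2 and 49.4 FPKM in nondiabetic marrow. Irf9 fell in both tissues, with differences of -0.56 (SE 0.039, adjusted p = 1.33e-04) in wound and -0.87 (SE 0.039, adjusted p = 4.15e-05) in marrow. The interferon gamma receptor gene Ifngr1 fell, differing by -0.99 (SE 0.042, adjusted p = 2.60e-05) in wound and -0.27 (SE 0.042, adjusted p = 0.00337) in marrow. Il28ra, a receptor chain for interferon lambda, differed by -1.15 (SE 0.045, adjusted p = 2.08e-05) in wound and 0.06 in marrow (adjusted p = 0.309), which did not pass. Socs3, a feedback inhibitor, fell in wound (-0.22, SE 0.048, adjusted p = 0.00967) and rose in marrow (0.68, SE 0.048, adjusted p = 2.10e-04).

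Of 22 tested sensors, adaptors and kinases outside the members, 7 fell and 4 rose in diabetic wound (21.6% and 32.6% of all tested loci), and 13 fell and 1 rose in diabetic marrow (33.3% and 13.5% of all). Irf7, the factor that amplifies interferon alpha production, had 24.3 and 24.4 FPKM in diabetic wound, against 44.6 and 45.3 FPKM in nondiabetic wound, and 20.8 and 22.3 FPKM in diabetic marrow, against 50.5 and 50 FPKM in nondiabetic marrow. It fell, differing by -0.86 (SE 0.039, adjusted p = 3.11e-05) in wound and -1.18 (SE 0.039, adjusted p = 1.28e-05) in marrow. The DNA sensor cGAS, listed under E330016A19Rik, fell, differing by -0.99 (SE 0.058, adjusted p = 7.06e-05) and -0.56 (SE 0.058, adjusted p = 7.52e-04), its adaptor STING (Tmem173) by -0.42 (SE 0.058, adjusted p = 0.00168) and -0.58 (SE 0.058, adjusted p = 6.41e-04), and the endosomal DNA receptor Tlr9 by -0.82 (SE 0.048, adjusted p = 7.00e-05) and -0.20 (SE 0.048, adjusted p = 0.0173). Among 53 tested interferon-stimulated genes outside the members, 42 fell and 3 rose in diabetic wound (21.6% and 32.6% of all tested loci; median -0.59), and 33 fell and 2 rose in diabetic marrow (33.3% and 13.5% of all; median -0.26). Tlr3 stands in both of the last lists, and 2 further loci of the last list are members' loci and were left out of these counts. Samd9l had 19.8 and 19.4 FPKM in diabetic wound, against 44.1 and 44.9 FPKM in nondiabetic wound, and 100 and 99.3 FPKM in diabetic marrow, against 121 and 129 FPKM in nondiabetic marrow, and fell, differing by -1.14 (SE 0.041, adjusted p = 1.69e-05) and -0.32 (SE 0.041, adjusted p = 0.00161). The thiol reductase gene Ifi30 fell, differing by -0.80 (SE 0.029, adjusted p = 1.71e-05) and -1.15 (SE 0.029, adjusted p = 5.43e-06), the GTPase gene Ifi47 by -1.18 (SE 0.046, adjusted p = 2.06e-05) and -1.05 (SE 0.046, adjusted p = 3.80e-05), and Parp12 by -0.62 (SE 0.036, adjusted p = 6.70e-05) and -0.72 (SE 0.036, adjusted p = 5.89e-05). In each of these pairs the wound value precedes the marrow value. These lists were drawn up with earlier results of the data known, so their counts are descriptions.

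**Figure D5:**
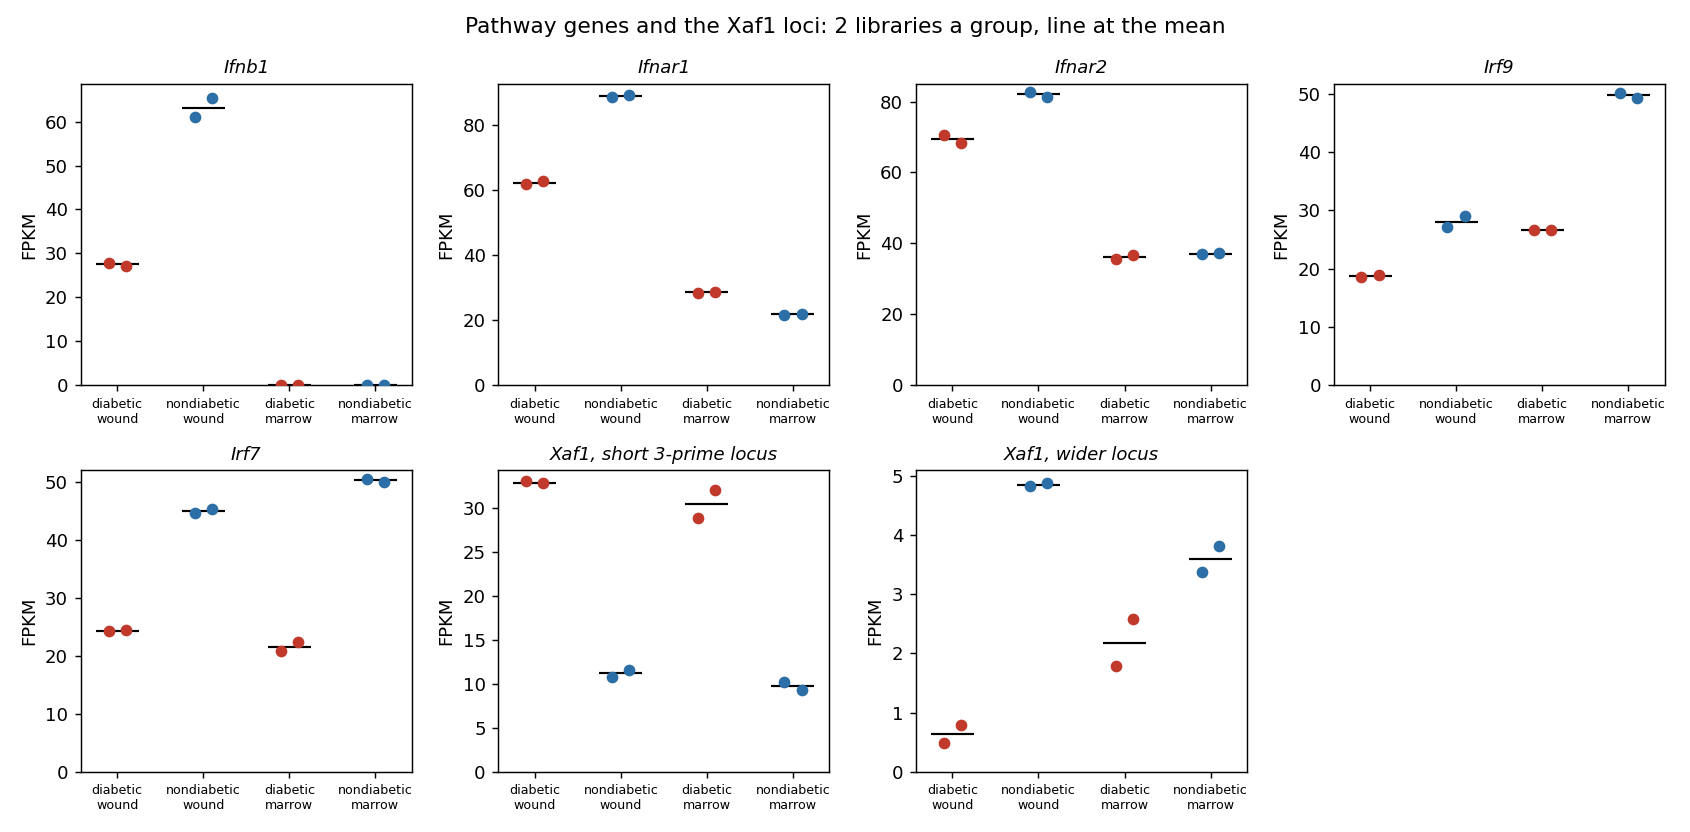
FPKM of 5 pathway genes and of both Xaf1 loci in each library, with a line at the group mean, in the order diabetic wound, nondiabetic wound, diabetic marrow and nondiabetic marrow. Ifnb1 is near 0 in all marrow pools, Ifnar1 is lower in diabetic wound and higher in diabetic marrow, and the Xaf1 loci order the genotypes in opposite ways.

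The response element in the promoter was set beside the size of the fall. Oas1a/Oas1g counted once and the row named for Ifi35 left out, the 13 loci with a match had median differences of -1.0 in wound and -1.17 in marrow. The 12 with a window and no match, Xaf1 at its short 3′ locus among them, had -0.94 and -0.58. Isg15, with 3 matches, fell by 0.95 in wound and 1.71 in marrow on the log2 scale, whereas Cmpk2, with none, fell by 1.00 and 0.68. Xaf1, which rose at its short 3′ locus and fell on its wider one, has no match in its window. Trim25, which rose in marrow and fell in wound, has none, nor have Ifit2 and Oasl1, which fell by 1.54 and 1.03 in wound. These medians are given without a test.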

How the data were processed

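RNA of Gr-1+ cells was sequenced on an Illumina HiSeq2000, per the labels' protocols. Reads were aligned with TopHat and assembled and quantified with Cufflinks against mm9, per the submitters' processing notes. Versions are not given in the sources used here. The authors deposited FPKM per assembled locus for 8 libraries, with no counts, so the absolute depth and its precision are unknown. By the steps of low values, the deepest library held about 1.87 times the reads of the shallowest.

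From these values, log2(FPKM + 1) was fitted in limma 3.58.1 (R 4.3.3) with trended variance over all 8 libraries as 4 group means. The fit left 4 residual degrees of freedom. Loci with at least 1 FPKM in at least 2 libraries were tested, 12823 in all, in 5 comparisons, with Benjamini-Hochberg adjustment over all of them and a threshold of 0.05. Differences understate the change of low genes because of the added 1 FPKM. The fit was also run on simulated data for the wound comparison, 12823 loci with independent noise. Changes were planted only in loci of higher level, 100 of 2-fold and 100 of 4-fold. Of these, 85 and 98 were called, with 12 false calls among the unchanged loci. In the real wound comparison far more loci were called (32.6% higher and 21.6% lower), so these figures do not give the error of its calls. Tables were made with Python 3.11.15, pandas 2.3.3 and matplotlib 3.10.9.

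The members and all gene lists were chosen with earlier results of these data known. Every member is accounted for. Outside them the text names Irf9, Irf7, Ifnar1, Ifnar2, Ifnb1 and Lepr, and from each pathway list up to 3 genes with the smallest p in each diabetes comparison. A gene that this rule also names is not reported here. Marker genes were named after their values were seen. Strand was read from the order of locus IDs, which matched the annotated strand for 94.9% of 14893 named loci. Alternatives changed the pseudocount, filter, scaling, locus choice, variance model, libraries in the fit and blocks. Pool numbers are not stated to pair libraries.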

Additional observations from a re-analysis of the deposited data

Results flagged for a closer look

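For 23 of the 37 effector loci the diabetes difference itself differed between wound and marrow, by the test of that difference in limma (adjusted p under 0.05 over all 12823 loci). That is 62.2% of the members, beside 58.9% of all tested loci, so the share is near the background. Each value is the diabetic minus nondiabetic difference in wound minus that in marrow, in log2(FPKM + 1).

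In 14 loci it was negative. Mx1 had -1.30, Trim25 -1.19, Ifit2 -0.95, Mx2 -0.71 and Ifih1 -0.69. Ifi44 had -0.57, Isg20 -0.57, Ddx58 -0.56 and Samhd1 -0.55. The value of Ifi44 is a description, because it passed the filter on low values only through the nondiabetic wound pools. Smaller values were -0.37 for Oasl2, -0.36 for Oas3, -0.32 for Cmpk2, -0.27 for Stat2 and -0.22 for Dtx3l. With a pseudocount of 5 the calls of Oas3 (-0.07, adjusted p = 0.46), Cmpk2 (0.03, adjusted p = 0.563) and Dtx3l (-0.06, adjusted p = 0.272) ended, and with a pseudocount of 0.1 that of Ifi44 did (-0.49, adjusted p = 0.069).

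In 9 loci it was positive: 0.85 for Oas1a/Oas1g, 0.80 for Rtp4, 0.76 for Isg15, 0.76 for Bst2, 0.74 for Usp18 and 0.60 for Ifi27l2a. Zbp1 had 0.39, Dhx58 0.23 and Parp14 0.19. These 3 calls ended with quantile scaling (Zbp1 0.16, adjusted p = 0.132, Dhx58 -0.02, adjusted p = 0.772, and Parp14 0.03, adjusted p = 0.549) and with median ratios (Zbp1 0.12, adjusted p = 0.246, Dhx58 -0.02, adjusted p = 0.697, and Parp14 -0.08, adjusted p = 0.153). That of Parp14 also ended with a pseudocount of 5 (0.09, adjusted p = 0.0549).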

How the results depend on the processing

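With 2 pools per group, 4 residual degrees of freedom and no counts, precision rests on the pools. In 23 alternatives, leaving out libraries included, the direction of the diabetes difference held for every member in both tissues except Xaf1 and Eif2ak2 on their widest loci, a choice added after seeing the data.

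On the widest locus Xaf1 had -1.84 in wound and -0.54 in marrow and, between tissues, -0.95 in diabetic mice, so that 0 members were higher in diabetic wound. Eif2ak2 had 1.06 in marrow and, between tissues, 0.55 in nondiabetic mice. With a minimum difference of 1, 18 members were lower in diabetic wound, 1 was higher and 15 lower in diabetic marrow, and 0 and 2 had a higher or lower difference between the effects. Wound minus marrow then had 11 higher and 9 lower in diabetic mice and 12 higher and 6 lower in nondiabetic mice.

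Scaling moved the tissue results. The difference between effects was lower for 22 members with quantile scaling and 24 with median ratios. It turned negative with quantile scaling for Dhx58 (-0.02), Ifi204 (-0.02), Ifit1 (-0.24), Ifit3 (-0.06) and Oasl1 (-0.07), and with median ratios for Dhx58 (-0.02), Ifi204 (-0.14), Ifit1 (-0.22), Ifit3 (-0.12), Oasl1 (-0.12) and Parp14 (-0.08). Wound minus marrow in diabetic mice turned with quantile scaling for Isg20 (0.04), Parp9 (0.21) and Stat2 (0.29), and with median ratios for Parp9 (0.15) and Stat2 (0.20). In nondiabetic mice it turned for Ifi27l2a (0.21 with quantile scaling, 0.26 with median ratios), Oasl2 (0.15 and 0.19), Usp18 (0.54 and 0.51) and Zbp1 (0.36 and 0.31). The cause was not tested.

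Other sign changes were in the difference between effects. With a pseudocount of 5 they were Apobec3 (0.09), Cmpk2 (0.03), Ifit1 (-0.35, adjusted p = 0.00204), Oas2 (0.10) and Oasl1 (-0.27, adjusted p = 0.00734). With a pseudocount of 0.1 Rsad2 changed (0.02), and with summed loci Oasl1 did (-0.04). Ifit1 (0.40, adjusted p = 0.0215) and Oasl1 (0.36, adjusted p = 0.0152) were called higher with a pseudocount of 0.1. The direction of these calls thus depended on the pseudocount. With 1 library left out, the difference between effects ranged from -0.09 to 0.06 for Rsad2 and from -0.04 to 0.13 for Ifit1. Wound minus marrow in nondiabetic mice ranged from -0.02 to 0.05 for Parp9 and from -0.06 to 0.02 for Usp18. The counts of members ranged over 1 higher and 35 lower in wound, 2 higher and 33 to 35 lower in marrow, 9 to 11 higher and 13 to 14 lower between effects, 19 to 20 higher and 13 to 14 lower between tissues in diabetic mice, and 17 to 20 higher and 14 to 15 lower in nondiabetic mice. A lone pool is then assumed to vary like the other groups. The stricter filter of 5 FPKM drops Ifi44.

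Pool numbers were also tried as a replicate block. Deviations of same-numbered libraries correlated at -0.33 to 0.23 over 12823 loci, and at -0.13 in diabetic and -0.22 in nondiabetic mice between wound and marrow. With 2 pools per group, swapping the numbers within a group only flips the sign of these values. They therefore cannot tell which pools share mice. With the pool number as block, 35 members were lower and 1 higher in wound, 35 lower and 2 higher in marrow, and 13 lower and 10 higher between effects. Between tissues, 20 were higher and 14 lower in diabetic and 19 higher and 15 lower in nondiabetic mice. With the pool of mice as replicate block, these were 20 and 14, and 18 and 15. Under that block the nondiabetic calls of Ifit3 (0.12, adjusted p = 0.0511) and Xaf1 (0.18, adjusted p = 0.077) ended. Crossed numbers, added after seeing the data, gave 21 and 13, and 19 and 15.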
